A study of Mus musculus with 4 samples.

Results

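The genes described here encode the nuclear subunits of the mitochondrial respiratory chain. They were taken from a ribosome profiling table of mouse embryonic stem cells by symbol: every gene whose symbol begins with Nduf, Uqcr, Atp5 or Cox4 to Cox8, together with Sdha, Sdhb, Sdhc, Sdhd and Cyc1, and without 2 symbols that carry the pseudogene ending -ps. This gave 96 of the 25170 genes of the table. Of these, 38 were placed in complex I, 8 were assembly factors of complex I (Ndufaf1 to Ndufaf8), 4 belonged to complex II, 9 to complex III, 19 to complex IV and 17 to complex V. Ndufa4 was counted with complex IV, where its protein resides, and its paralog Ndufa4l2 was kept apart. Ndufa11b is listed in RefSeq as a transcribed pseudogene and was kept because its symbol meets the rule.

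The respiratory chain carries electrons from NADH and succinate to oxygen and stores the energy as a proton gradient across the inner mitochondrial membrane, which complex V uses to make ATP. Complex I oxidises NADH, complex II oxidises succinate, complex III passes electrons from ubiquinol to cytochrome c, and complex IV, cytochrome c oxidase, reduces oxygen. All except complex II combine subunits of the nuclear and of the mitochondrial genome, so that most subunits are translated in the cytosol and imported. Mouse embryonic stem cells in serum rely on both glycolysis and respiration.

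Footprints came from E14, a line of the inner cell mass with the WT genotype, grown on gelatin with serum and leukemia inhibitory factor. The DMSO group, which received the solvent only, and the PD group, at 1 µM, had 2 libraries each, and both were kept so for 3 passages. The labels name the compound only as PD, and the series asks how Mek acts on gene expression after transcription. The labels leave it unsaid whether the replicates are separate cultures, and the spread that each p-value is set against may therefore be technical. The unit is FPKM, in which fragments are divided by transcript length and by library size, and a gene's footprint count depends on mRNA amount as well as on ribosome density. No matched RNA was used here, so the contributions cannot be told apart, nor can fewer cells of a type and less RNA per cell.

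Depth, read from the values and set to 1 for DMSO replicate 1, was 1.42 for the other DMSO library and 0.464 and 0.201 for PD replicates 1 and 2. Depth thus went with treatment, and its part in the differences was not tested. Small RNA genes held 98.6% to 99.3% of the FPKM sum of each library. All 11 pluripotency markers passed the expression minimum, with a summed level of 2472 to 2478 FPKM in DMSO and 2568 to 4149 FPKM in PD. Most of each sum was Dppa5a, with 1414 and 1633 FPKM in DMSO and 1421 and 3203 FPKM in PD. The 8 fibroblast and feeder markers summed to 1.85 to 3.44 FPKM over the 4 libraries, with Lum, Postn and S100a4 at 0. Most of each sum was Thy1, with 1.13 and 1.49 FPKM in DMSO and 1.82 and 2.10 FPKM in PD, which alone reached the minimum. Of 9 markers of exit and germ layers, 2 reached it. Otx2 had 8.34 and 6.53 FPKM in DMSO and 5.66 and 2.84 FPKM in PD. Pax6 had 2.78 and 1.35 FPKM in DMSO and 0.142 and 2.61 FPKM in PD. The part of such cells in the results was not tested.

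Promoter sequence is shown first for the members that held the complete binding motif of NRF1, nuclear respiratory factor 1, a transcription factor known for its sites in respiratory genes. RefSeq promoters of GRCm38.p6, 250 bases before to 50 bases after the annotated start, were at hand for 78 of the members, in 83 promoters. The palindromic motif, spelled out by the capitals in the stretches printed here, lay in 7 of the 83 (8.43%), against 2.39% of 9200 promoters of protein-coding genes tested and 0.971% of all 32851 promoters. In 5 members it lay upstream of the start, and these are printed 5′ to 3′ on the gene's strand with the motif in capitals.
Atp5k, minus strand, chr5:108434420-108434469: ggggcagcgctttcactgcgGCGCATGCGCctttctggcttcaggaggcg
Atp5g2, minus strand, chr15:102671060-102671109: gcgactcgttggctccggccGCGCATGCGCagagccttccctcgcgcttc
Cox6a1, minus strand, chr5:115349091-115349140: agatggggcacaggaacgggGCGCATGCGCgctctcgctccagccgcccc
Ndufa11, plus strand, chr17:56717682-56717731: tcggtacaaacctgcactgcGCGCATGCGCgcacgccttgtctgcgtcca
Ndufaf4, plus strand, chr4:24897950-24897999: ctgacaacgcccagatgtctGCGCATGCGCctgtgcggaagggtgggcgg
In Ndufaf5 and Uqcrc1 the motif lay after the start. These 7 genes did not form a group by level: Atp5k was among the members with the highest levels and Atp5g2 was near 0, as given with complex V.

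The shorter NRF1 core GCATGCGC, which every complete motif contains, was in 14.5% of member promoters and 6.10% of those of tested coding genes. The YY1 motif AAGATGGC was in 13.3% against 5.17%. Of the 11 members that held it, only Atp5j had it wholly upstream of the start. In Atp5pb it spanned the start, and in the others it lay after the start. The ETS core CCGGAAG, which the respiratory regulator GABPA recognises, was in 22.9% against 19.97%, close to that background, and in 8.86% of all promoters. The SP1 motif GGGCGG was in 43.4% against 64.8%, but in 35.7% of all promoters, so the members lay between the backgrounds. Member promoters had 57.7% G and C against 60.8% in those of tested coding genes. Both strands were searched. A match describes the letters and shows no binding. The ETS core is shown upstream of 5 members (Ndufb7 of complex I, its assembly factors Ndufaf1 and Ndufaf8, Cox6b1 of complex IV and Atp5e of complex V) whose footprints did not overlap between the groups, with the core in capitals as read on the gene's strand.
Ndufb7, plus strand, chr8:83566718-83566757: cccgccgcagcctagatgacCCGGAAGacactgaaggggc
Ndufaf1, minus strand, chr2:119662835-119662872: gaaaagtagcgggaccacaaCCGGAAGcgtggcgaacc
Ndufaf8, plus strand, chr11:120098906-120098933: ggatgttcacgcgttcgactCCGGAAGa
Cox6b1, minus strand, chr7:30626116-30626162: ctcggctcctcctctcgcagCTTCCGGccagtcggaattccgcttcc
Atp5e, minus strand, chr2:174464177-174464223: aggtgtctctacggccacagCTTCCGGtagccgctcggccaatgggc
The core was thus found before genes on either side of the comparison, since Ndufb7, Ndufaf1 and Cox6b1 were higher in both PD libraries and Ndufaf8 and Atp5e lower. Of 18 tested members with the core anywhere in the promoter, 5 were higher, 2 were lower and the rest overlapped. Among the higher, Atp5k and Atp5md hold it after the start. Of all genes tested, 17.5% were higher and 18.3% lower.

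**Figure D1:**
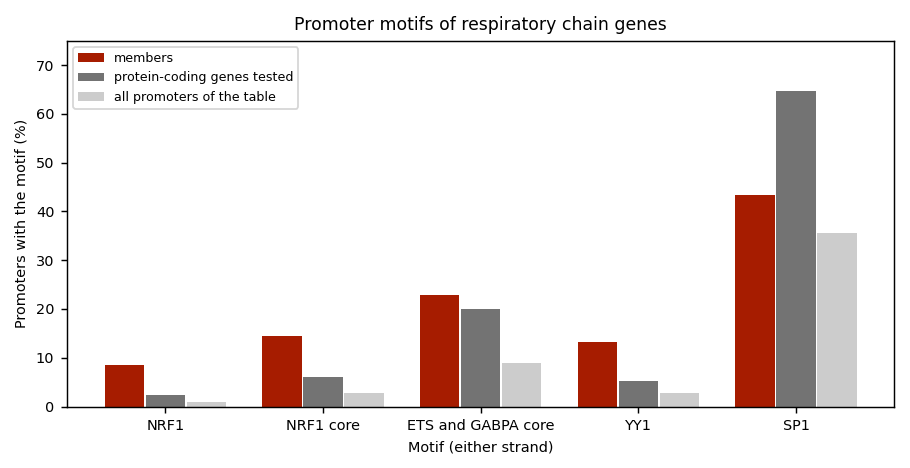
Share of promoters that hold each motif on either strand (y axis, %), for members (83 promoters), tested protein-coding genes (9200) and all promoters of the RefSeq table (32851). The NRF1 motif was in 8.43% of member promoters against 2.39% of those of tested coding genes, while the SP1 motif was in 43.4% against 64.8%. Of all promoters, 0.971% held the NRF1 motif and 35.7% the SP1 motif.

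Respiratory chain genes were among the genes with the most footprints per length in these cells. Of the 89 members that reached 1 FPKM on average and were tested, 42 (47.2%) reached a mean of 100 FPKM, which 4.83% of the 8863 tested protein-coding genes did. The members held 16 of the 100 highest protein-coding genes and 45 of the 500 highest. Summed over the members, the level was 17551 and 17870 FPKM in DMSO against 17116 and 18385 FPKM in PD. This was 6.61% and 7.05% of the protein-coding sum in DMSO and 6.47% and 6.92% in PD, so the groups overlapped.

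By share of the protein-coding sum, complexes V and IV led in every library. Complex V took 2.35% and 2.43% in DMSO and 2.56% and 2.45% in PD, and complex IV 1.98% and 2.57% in DMSO and 1.68% and 2.45% in PD. Complex I, which has the most subunits, took 1.56% and 1.47% in DMSO and 1.56% and 1.44% in PD. Complex III took 0.468% and 0.317% in DMSO and 0.376% and 0.243% in PD. The PD libraries overlapped the DMSO libraries in complexes I, III and IV. Complex II took 0.196% and 0.205% in DMSO and 0.241% and 0.291% in PD, and the complex I assembly factors 0.0577% and 0.0609% in DMSO and 0.0420% and 0.0439% in PD. Those sums did not overlap, with complex II higher and the assembly factors lower in both PD libraries. For complex II this separation rested on Sdhc, with 209 and 195 FPKM in DMSO and 339 and 326 FPKM in PD. The sums of complex V did not overlap either and were higher in both PD libraries, PD replicate 2 by a narrow margin. That separation rested on single members, among them Atp5k, with 809 and 913 FPKM in DMSO and 1746 and 1136 FPKM in PD. Another was Atp5md, with 152 and 293 FPKM in DMSO and 319 and 767 FPKM in PD. The separation was lost when either gene was left out. The median log2 difference of the members of complex V, given below, was -0.02. Against all genes other than small RNA genes, PD replicate 1 stood apart: the members made up 2.10% and 2.14% in DMSO and 3.21% and 2.13% in PD. With that denominator the assembly factors overlapped, at 0.0184% and 0.0185% in DMSO and 0.0208% and 0.0135% in PD, while complex II still did not, at 0.0623% and 0.0621% in DMSO and 0.119% and 0.0895% in PD. Nor did complex V, at 0.748% and 0.736% in DMSO and 1.27% and 0.755% in PD.

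**Figure D2:**
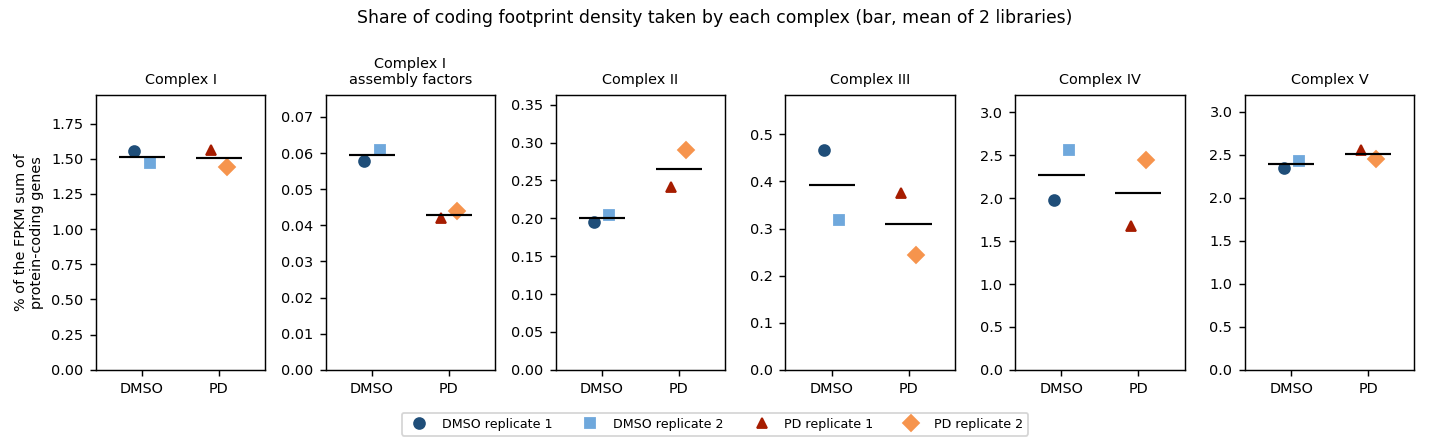
Share of the FPKM sum of protein-coding genes (y axis, %, from 0, with its own scale in each panel) taken by each complex in the 2 DMSO and 2 PD libraries, with a bar at the mean of each group. The groups were apart for complex II (0.196% and 0.205% against 0.241% and 0.291%), for the assembly factors (0.0577% and 0.0609% against 0.0420% and 0.0439%) and for complex V (2.35% and 2.43% against 2.56% and 2.45%). The separation of complex II rested on Sdhc, and that of complex V was lost without Atp5k or without Atp5md.

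**Figure D3:**
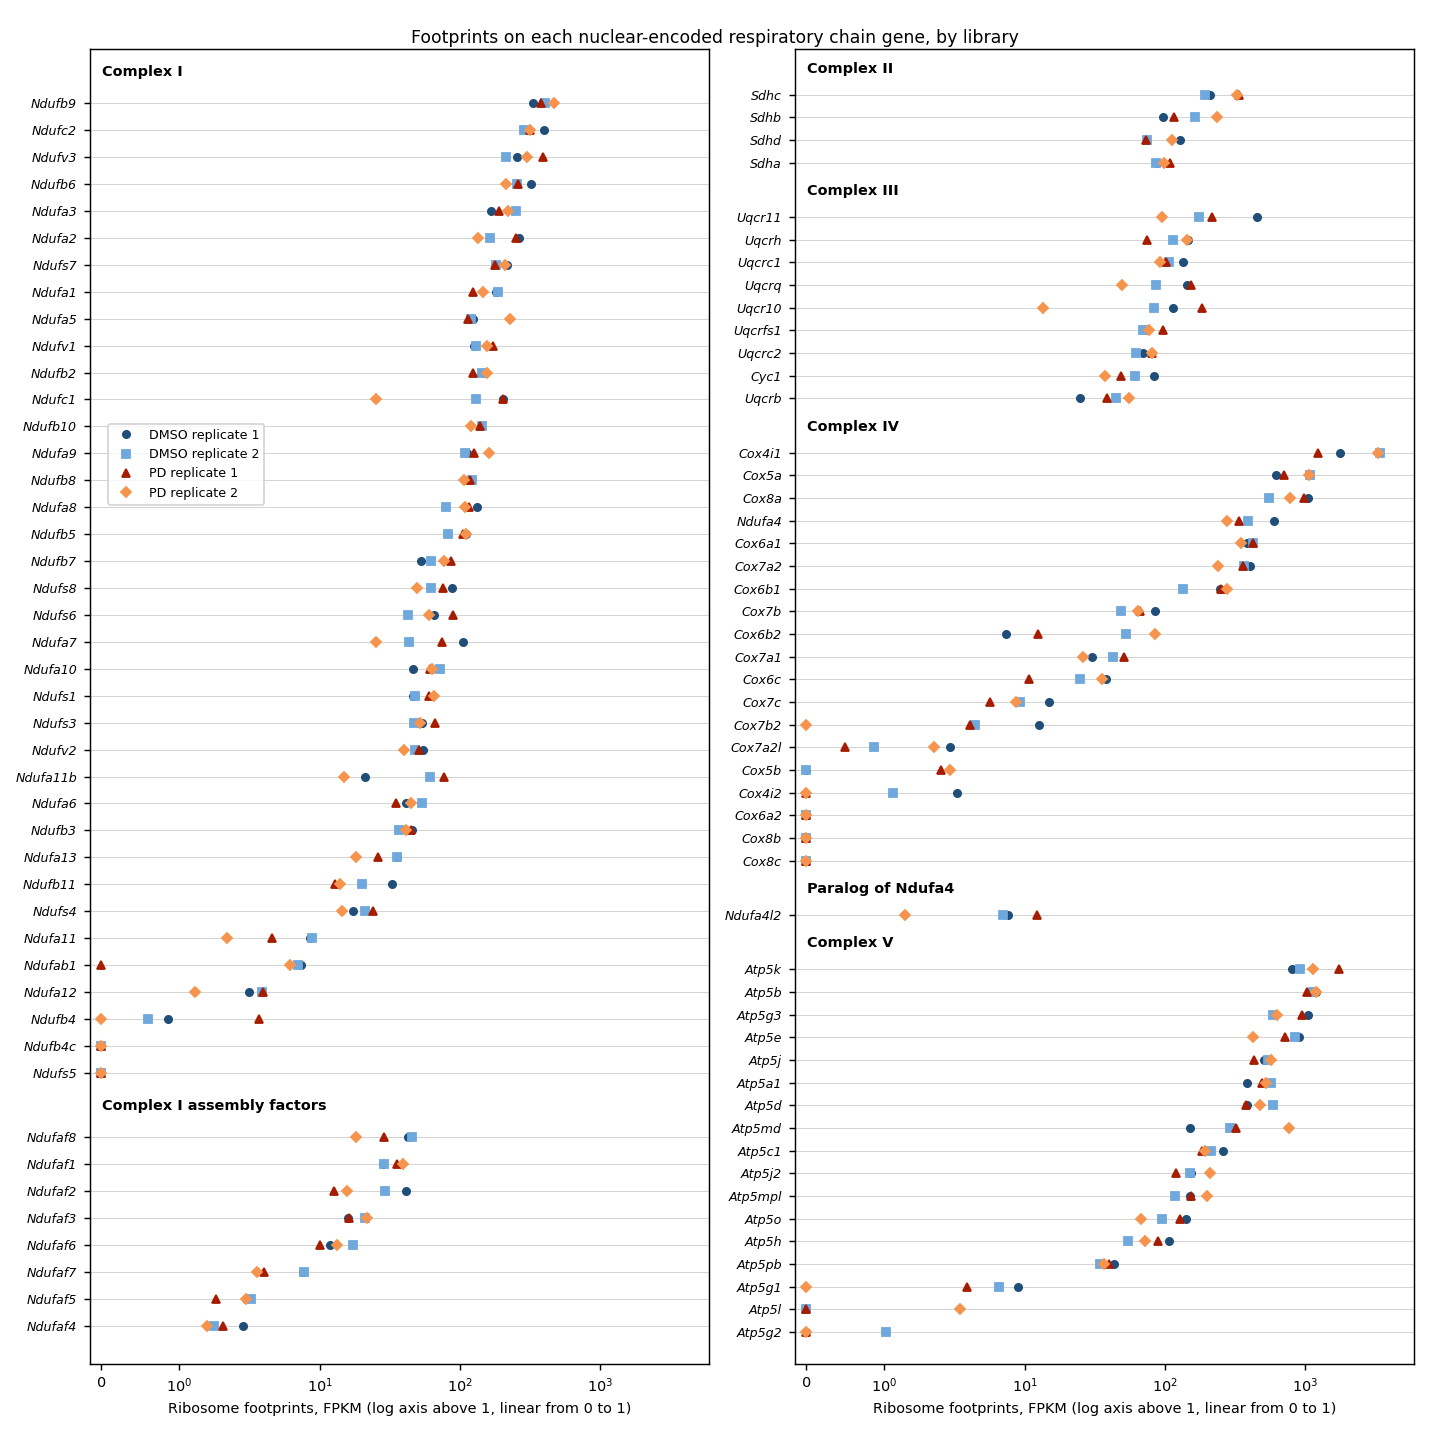
Footprint level of the members in each library, without a member that is not reported here (x axis, FPKM, logarithmic above 1 and linear from 0 to 1), ordered within each complex by the mean of the 4 libraries. Levels ran from 0 in every library for 5 members to a mean of 2419 FPKM for Cox4i1.

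No member passed the test between PD and DMSO. In limma's fit over 9741 genes with Benjamini-Hochberg adjustment, 3 genes were higher in PD (0.0308%) and 22 lower (0.226%), none of them a member, and the lowest adjusted p among members was 0.669. At an unadjusted p under 0.05 there were 8 members, beside 561 of all genes tested (5.76%). The 8 include Cox5b and Cox4i2, each of which reached the minimum mean only through the group where it was high. On data simulated with the observed spread, 0% of genes changed by 1 or by 2 log2 units were recovered. In that simulation the fit thus made no call at these sizes of change. Each gene was drawn with its own spread from 2 libraries a group, a rough estimate, so recovery in the real data may differ. No protein-coding gene passed either, with a lowest adjusted p of 0.123.

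The libraries can also be compared by whether they overlap. Both PD libraries lay above both DMSO libraries for 15 members and below them for 21, and 53 overlapped. Cox5b, among the higher, reached the minimum only through its PD libraries, and Cox4i2, among the lower, only through its DMSO libraries. The 36 that did not overlap are 40.4% of the members, close to the 35.8% among all genes tested, where 17.5% were higher and 18.3% lower. Among the 71 members of at least 20 FPKM, 14 were higher and 12 lower, against 20.4% and 16.2% of all genes at that level. The split depended on scaling. When the libraries were rescaled to an equal sum of all genes other than small RNA genes, 23 members were higher and 9 lower. Of all genes, 27.2% were higher and 7.05% lower, and the median log2 difference of all genes tested moved from -0.02 to 0.23. Relative to its geometric mean, that sum was 1.11 in both DMSO libraries and 0.709 and 1.15 in PD replicates 1 and 2. The rescaling thus raised PD replicate 1 and lowered the other libraries. Leaving out any 1 library raised the counts, to between 24 and 26 higher and 30 and 43 lower, since 3 libraries overlap less often.

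The median log2 difference, PD minus DMSO on the log2(FPKM + 1) scale, was -0.07 over the members and -0.02 over all genes tested. It was -0.05 for complex I, -0.29 for the assembly factors, 0.32 for complex II, -0.33 for complex III, -0.17 for complex IV and -0.02 for complex V. Complex II stood above the all-gene median and complex III and the assembly factors below it under each scaling tried. Complexes I, IV and V had no settled sign: rescaled without small RNA genes their medians were 0.25, 0.13 and 0.28, against an all-gene median of 0.23. Without PD replicate 2, the shallowest library, the median of complex III was 0.21 and that of complex II 0.10, and without PD replicate 1 that of complex IV was 0.02.

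**Figure D4:**
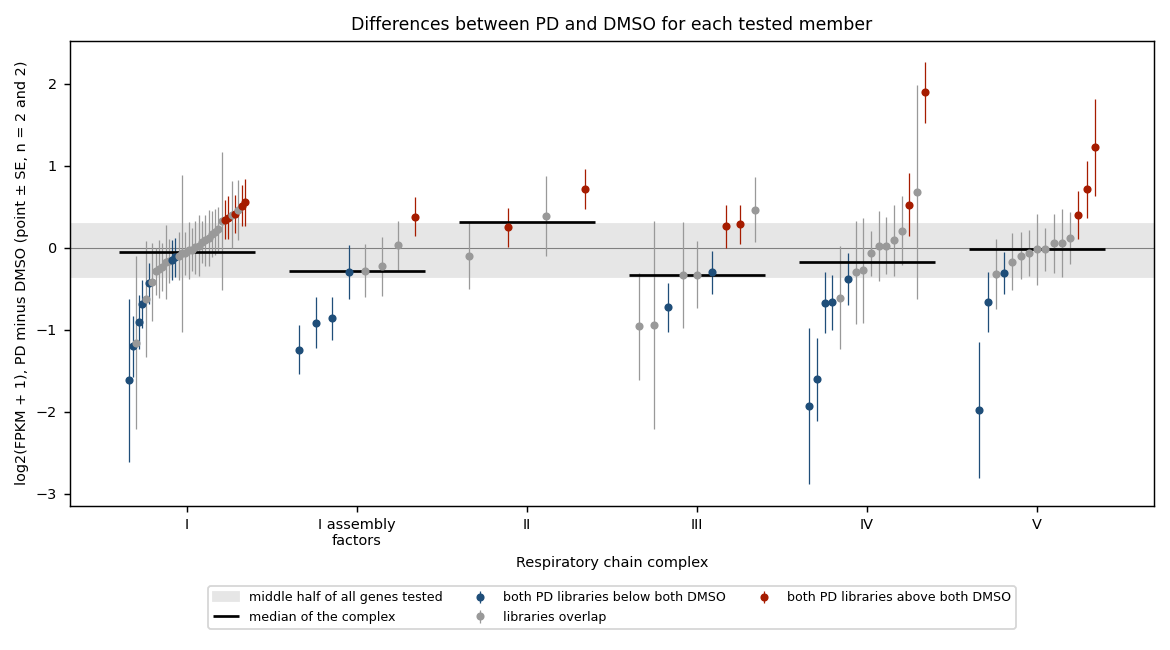
Difference between PD and DMSO for each tested member on the log2(FPKM + 1) scale (y axis, point with its SE, n = 2 and 2), by complex (x axis). Black bars mark the medians, -0.33 for complex III and 0.32 for complex II at the extremes, and the grey band spans the middle 50% of all genes tested, -0.36 to 0.29.

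Complex I receives electrons from NADH through a core that is conserved from bacteria, of which the nucleus encodes the hydrophilic arm. The 7 core subunits differed little, with differences from -0.26 to 0.41 and a median of 0.02, and 2 of them were higher in both PD libraries. That is 28.6% without overlap, below the 35.8% of all genes tested. Ndufs1, the large iron-sulfur subunit, had 46.1 and 47.5 FPKM in DMSO and 60.3 and 64.9 FPKM in PD. The groups did not overlap, with a difference of 0.41 (SE 0.23, adjusted p = 0.837). Ndufv1, the NADH-binding flavoprotein, had 125 and 131 FPKM in DMSO and 172 and 155 FPKM in PD, a difference of 0.34 (SE 0.24). It is named after its values were seen, as the second core subunit on that side. The iron-sulfur subunits Ndufv2, Ndufs7 and Ndufs8 and the subunit Ndufs3 overlapped. Core levels ran from 48.4 FPKM for Ndufv2 to 196 FPKM for Ndufs7. The value of Ndufs7 is open to doubt, because the table gives it a joined locus with the complex V gene Atp5d (chr10:79697305-80369637, mm10) that spans other genes.

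Around the core sit the supernumerary subunits, of which 29 of 31 were tested, with 3 higher, 7 lower and 19 overlapping. The 34.5% without overlap is near the 35.8% of all genes tested. Their highest levels were those of the membrane arm. Ndufb9 had 333 and 406 FPKM in DMSO and 381 and 466 FPKM in PD. Ndufc2 had 399 and 286 FPKM in DMSO and 314 and 315 FPKM in PD. Both overlapped, and their differences were 0.19 and -0.10.
Ndufv3, a subunit of the NADH-binding module and the third highest, had 257 and 212 FPKM in DMSO and 391 and 300 FPKM in PD (difference 0.55, SE 0.29, adjusted p = 0.837). Ndufb7, a membrane arm subunit with cysteine motifs for import into the intermembrane space, had 52.7 and 62.1 FPKM in DMSO and 87.1 and 77.6 FPKM in PD (0.52, SE 0.25). Ndufa9, next to the quinone site, had 112 and 108 FPKM in DMSO and 126 and 162 FPKM in PD (0.37, SE 0.27, and 0.19 without PD replicate 2). These were the supernumerary subunits that were higher in both PD libraries, each by less than 1 log2 unit.

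On the lower side, Ndufab1, the mitochondrial acyl carrier protein, had 7.41 and 6.98 FPKM in DMSO and was listed at 0 and at 6.13 FPKM in PD. Its reads, recovered from the FPKM steps, were 6, 8, 0 and 1, so the value in PD replicate 2 came from 1 read. The difference of -1.62 (SE 1.00) rests on the 0 in PD replicate 1. Ndufa11, a membrane subunit at the interface with complex III in supercomplexes, had 8.52 and 8.81 FPKM in DMSO and 4.55 and 2.18 FPKM in PD (-1.20, SE 0.37, adjusted p = 0.806). The reads behind it, recovered as whole numbers from the FPKM steps, were 97, 142, 24 and 5. Ndufb11, an X-linked membrane subunit, had 32.8 and 20.2 FPKM in DMSO and 12.8 and 13.9 FPKM in PD (-0.90, SE 0.33, adjusted p = 0.837). Ndufa13, also known as GRIM-19, had 35.6 and 35.6 FPKM in DMSO and 26.2 and 18.1 FPKM in PD (-0.68, SE 0.29). The other 3 on this side, Ndufa1, Ndufb10 and Ndufb8, differed by -0.44 to -0.12. Ndufc1 differed mainly between the PD libraries, since it had 203 and 130 FPKM in DMSO and 204 FPKM in PD replicate 1, but 25.2 FPKM in PD replicate 2, where 5 reads were recovered.

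The assembly factors help build complex I and are not part of it. Their footprint levels were below those of the subunits, with a median of 15.9 FPKM against 69.3 FPKM for complex I. Of the 8, 1 was higher in both PD libraries, 4 were lower and 3 overlapped, beside 17.5% higher and 18.3% lower among all genes tested. Ndufaf2, a chaperone of a late intermediate and a paralog of Ndufa12, had 41.0 and 29.3 FPKM in DMSO and 12.6 and 15.7 FPKM in PD (-1.24, SE 0.30, adjusted p = 0.766). Ndufaf7, a methyltransferase, had 7.61 and 7.77 FPKM in DMSO and 3.99 and 3.57 FPKM in PD (-0.86, SE 0.26, adjusted p = 0.805). Their unadjusted p-values in limma were 0.0119 and 0.0252.
Ndufaf8 and Ndufaf5 act as partners, Ndufaf5 being the hydroxylase of Ndufs7. Ndufaf8 had 42.8 and 45.3 FPKM in DMSO and 28.6 and 18.3 FPKM in PD (-0.91, SE 0.31, adjusted p = 0.825). Ndufaf5 had 2.99 and 3.25 FPKM in DMSO and 1.84 and 2.97 FPKM in PD (-0.30, SE 0.33). The reads behind Ndufaf8 in PD were 18 (95% Poisson interval 10.7 to 28.4) and 5 (1.62 to 11.7), intervals that cover counting error only. Ndufaf1, of the early membrane arm complex, went the other way, with 28.4 and 28.7 FPKM in DMSO and 35.8 and 39.3 FPKM in PD (0.38, SE 0.24). Restricted to the 6 factors with a mean of at least 5 FPKM, the median was -0.57.

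Complex II links the tricarboxylic acid cycle to the chain, and its 4 subunits are all nuclear. Sdhc, a membrane anchor that binds ubiquinone, had 209 and 195 FPKM in DMSO and 339 and 326 FPKM in PD. The means were 202 ± 10.3 and 333 ± 9.44 FPKM (SD, n = 2 each), a ratio of 1.65 and a difference of 0.72 (SE 0.25, 95% interval 0.06 to 1.38, adjusted p = 0.825 in limma). With 946, 1247, 712 and 297 reads it was also among the better counted members, and it lies at chr1:171129157-171150603 (mm10). The gap between the groups was wider than the spread within them, but Sdhc did not pass the test over all genes.
Sdha, the flavoprotein that oxidises succinate, had 87.3 and 86.6 FPKM in DMSO and 109 and 98.5 FPKM in PD (0.25, SE 0.24). Sdhb, the iron-sulfur subunit, had 96.2 and 164 FPKM in DMSO and 116 and 235 FPKM in PD. Sdhd, the other anchor, had 127 and 74.5 FPKM in DMSO and 73.5 and 113 FPKM in PD. Sdhb and Sdhd overlapped between the groups. Of the 4 subunits, 2 were thus higher in both PD libraries and 2 overlapped. That is 50% without overlap, against 35.8% of all genes tested, where 17.5% were higher. The ratio of Sdhc to Sdha was 2.39 and 2.25 in DMSO and 3.12 and 3.31 in PD, while the assembled complex holds its subunits in equal numbers. A ratio of FPKM between genes depends on their transcript lengths and is not read here as a ratio of protein made.

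In complex III, 2 of 9 subunits were higher in both PD libraries, 2 were lower and 5 overlapped (44.4% without overlap, against 35.8% of all genes tested). Cyc1, cytochrome c1, which hands electrons to cytochrome c, had 83.1 and 61 FPKM in DMSO and 48.4 and 37.5 FPKM in PD (-0.73, SE 0.30, adjusted p = 0.837). Uqcrc1, a core protein of the matrix side, had 134 and 106 FPKM in DMSO and 102 and 92.2 FPKM in PD (-0.30, SE 0.26), a difference that was 0.0011 after rescaling without small RNA genes. The other core protein, Uqcrc2, had 70.3 and 62.4 FPKM in DMSO and 80.9 and 81.1 FPKM in PD (0.29, SE 0.24).
The core proteins, which pair in the complex, thus lay on opposite sides, and the ratio of Uqcrc2 to Uqcrc1 was 0.527 and 0.588 in DMSO and 0.797 and 0.879 in PD. Uqcrfs1, the Rieske iron-sulfur protein, had 74.4 and 69.7 FPKM in DMSO and 96.8 and 77.2 FPKM in PD (0.26, SE 0.26).
The small subunits varied most between libraries of the same group. Uqcr11 had 453 and 176 FPKM in DMSO and 218 and 96.0 FPKM in PD. Uqcr10 had 114 and 84.0 FPKM in DMSO and 183 and 13.4 FPKM in PD, the last from 3 reads (95% Poisson interval 0.619 to 8.77). Uqcrh, an acidic hinge protein, had 147 and 115 FPKM in DMSO and 74.3 and 143 FPKM in PD, and RefSeq names 2 pseudogenes of it. All 3 overlapped, as did Uqcrq and Uqcrb. The median of complex III therefore rested on PD replicate 2.

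Complex IV held the highest member. Cox4i1, the ubiquitous form of subunit 4, ranked 5 among protein-coding genes, with 1768 and 3385 FPKM in DMSO and 1243 and 3282 FPKM in PD. Replicate 2 exceeded replicate 1 in both groups, and the groups overlapped (-0.28, SE 0.64). Cox5a had 614 and 1075 FPKM in DMSO and 701 and 1069 FPKM in PD, with replicate 2 again the higher. Cox8a had 1043 and 548 FPKM in DMSO and 978 and 780 FPKM in PD, with replicate 1 the higher. The spread within groups was larger in complex IV than elsewhere: the DMSO libraries differed by a median of 0.79 log2 units, against 0.27 in complex I.

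Of the 16 members of complex IV tested, 2 were higher in both PD libraries, 5 lower and 9 overlapping, beside 17.5% higher and 18.3% lower among all genes. Cox5b, among the higher, and Cox4i2, among the lower, passed the minimum only through the group where they were high. Their sides are not read as a result. Cox6b1, which faces the intermembrane space, had 246 and 135 FPKM in DMSO and 249 and 277 FPKM in PD (0.53, SE 0.38). Ndufa4, first described in complex I, had 602 and 391 FPKM in DMSO and 335 and 279 FPKM in PD (-0.66, SE 0.34, adjusted p = 0.837). Cox7c had 14.8 and 9.23 FPKM in DMSO and 5.64 and 8.66 FPKM in PD (-0.67, SE 0.37), from 17, 15, 3 and 2 reads.
Cox5b had the lowest p among members, yet both DMSO libraries list it at 0, and it had 2.53 and 2.92 FPKM in PD. Its fitted difference of 1.90 (SE 0.37, adjusted p = 0.669) depends on the pseudocount of 1 and rests on 2 and 1 recovered reads, and no fold is given. Cox5b is a subunit of every cytochrome c oxidase, and a listing at 0 is not read here as absence. RefSeq names 1 pseudogene of Cox5b, and the sources used here do not say how reads matching several places were treated.

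Several subunits of complex IV exist as paralogs that differ by tissue, and the ubiquitous form led in every library. Cox4i2, a form known from lung and low oxygen, had 3.29 and 1.16 FPKM in DMSO, and both PD libraries list it at 0, far below Cox4i1. In voom on recovered reads, its difference was 0.08 in place of -1.61. Cox6a1 had 383 and 426 FPKM in DMSO and 425 and 349 FPKM in PD, while its heart and muscle paralog Cox6a2 was listed at 0 in all 4. Cox8b of heart and muscle and Cox8c of testis, the paralogs of Cox8a, were likewise listed at 0 in all 4, which is not read as absence. Markers of muscle and brown fat reached 1.66 to 10.2 FPKM in sum, Actc1 alone of the 6 reached the minimum, and 3 testis markers were at 0.
Footprints of the heart form Cox7a1 were found beside those of the liver form Cox7a2. Cox7a2 had 403 and 365 FPKM in DMSO and 359 and 241 FPKM in PD, and Cox7a1 30.1 and 42.5 FPKM in DMSO and 50.8 and 26.0 FPKM in PD. Cox7a1 thus made up 6.95% and 10.4% of the pair's sum in DMSO and 12.4% and 9.74% in PD. Cox7a2l, a supercomplex factor, had 2.95 and 0.868 FPKM in DMSO and 0.492 and 2.26 FPKM in PD.
The testis form Cox6b2 was well above 0 in cells whose testis markers were not. It had 7.39 and 52.8 FPKM in DMSO and 12.4 and 85.7 FPKM in PD, from 9, 91, 7 and 21 reads. Its share of the sum with Cox6b1 was 2.92% and 28.2% in DMSO and 4.74% and 23.6% in PD. Cox6b2 was high in replicate 2 and low in replicate 1 of both groups, as was Cox4i1, and the difference between groups was 0.68 (SE 1.31). The other testis form, Cox7b2, had 12.6 and 4.46 FPKM in DMSO and 4.09 FPKM and a listing at 0 in PD, against 84.3 and 48.8 FPKM in DMSO and 66.4 and 64.4 FPKM in PD for Cox7b. Ndufa4l2, a paralog of Ndufa4 known from low oxygen, had 7.65 and 6.999 FPKM in DMSO and 12.2 and 1.41 FPKM in PD.

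**Figure D5:**
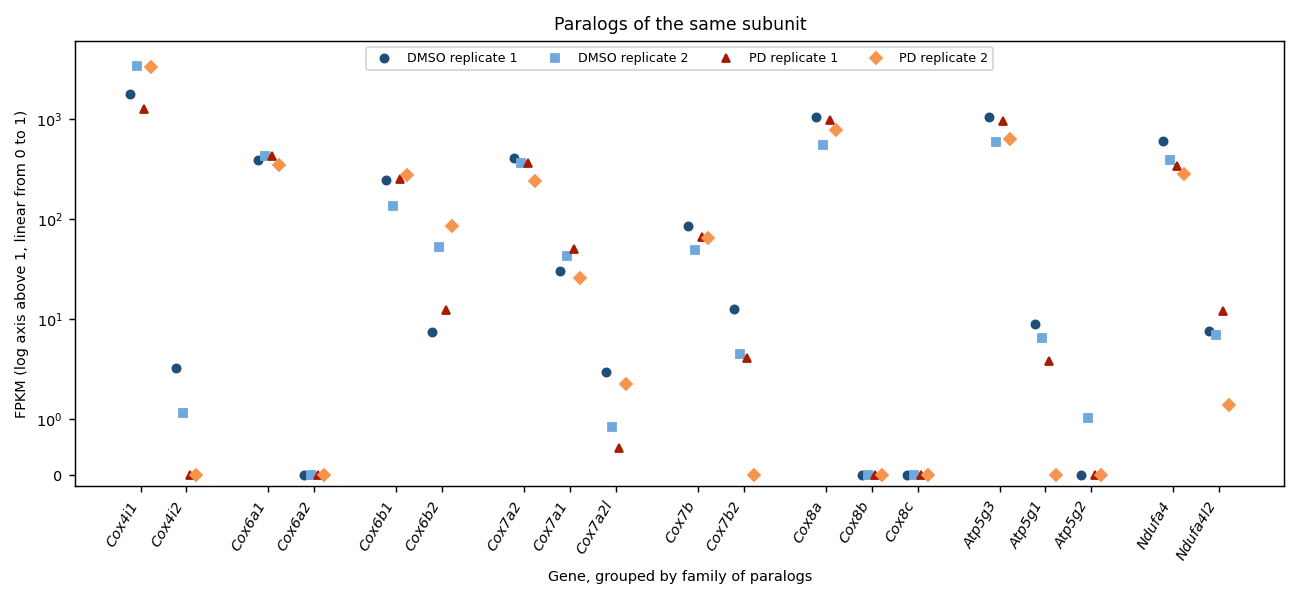
Footprint level of paralogs of the same subunit in each library (y axis, FPKM, logarithmic above 1 and linear from 0 to 1), grouped by family along the x axis. The form drawn leftmost in each family was the highest, as in Cox4i1 at 1243 to 3385 FPKM against Cox4i2 at 0 to 3.29 FPKM, and Cox6b2 ranged from 7.39 to 85.7 FPKM.

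Complex V, the ATP synthase, consists of the catalytic F1 head, the rotating ring of c subunits, the peripheral stalk and small membrane subunits. Atp5b, the catalytic beta subunit, had 1190 and 1132 FPKM in DMSO and 1032 and 1203 FPKM in PD, and the groups overlapped. Atp5a1, the alpha subunit that alternates with it in the head, had 385 and 569 FPKM in DMSO and 491 and 523 FPKM in PD. The alpha to beta ratio was 0.323 and 0.503 in DMSO and 0.476 and 0.434 in PD, below 1 in every library, while the head holds them in equal numbers. FPKM depends on the transcript length used for each gene, so this ratio is not read as a ratio of protein made.
The other head subunits include the shaft. Atp5c1, the gamma subunit of that shaft, had 258 and 213 FPKM in DMSO and 184 and 193 FPKM in PD (-0.31, SE 0.26). Atp5e, the epsilon subunit at its foot, had 898 and 849 FPKM in DMSO and 716 and 423 FPKM in PD (-0.66, SE 0.36, adjusted p = 0.837). Both lay lower in both PD libraries, while Atp5a1, Atp5b and Atp5d overlapped.

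The c ring is built from identical mature proteins of 3 genes. Atp5g3 supplied nearly all footprints, with 1043 and 589 FPKM in DMSO and 949 and 630 FPKM in PD. Atp5g1 had 8.96 and 6.57 FPKM in DMSO and 3.86 FPKM and a listing at 0 in PD, and made up 0.852% and 1.10% of the sum with Atp5g3 in DMSO and 0.405% in PD replicate 1. Atp5g2 was listed at 0 except in DMSO replicate 2, at 1.03 FPKM, although its promoter holds the NRF1 motif printed above. The genes encode the same mature protein with different import signals, and whether footprints shared between them were assigned to a single gene was not tested.
The peripheral stalk, which holds the head still, showed no separation between groups. Atp5pb, Atp5h, Atp5j and Atp5o all overlapped, with differences from -0.32 to 0.06.

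The small membrane subunits gave the members of complex V that were higher in both PD libraries. Atp5k, subunit e, which joins ATP synthases into dimers, had the highest mean of the complex, with 809 and 913 FPKM in DMSO and 1746 and 1136 FPKM in PD. Its means were 861 ± 73.4 and 1441 ± 432 FPKM (SD, n = 2 each), a ratio of 1.67 and a difference of 0.71 (SE 0.35, adjusted p = 0.837). RefSeq names 4 pseudogenes of Atp5k, the most of any member, and their part in its level was not tested.
Atp5md, also known as DAPIT, had 152 and 293 FPKM in DMSO and 319 and 767 FPKM in PD (1.22, SE 0.59, adjusted p = 0.837). Its reads were 114, 312, 111 and 116, and replicate 2 was the higher in both groups. Atp5mpl, a small proteolipid, had 151 and 118 FPKM in DMSO and 154 and 201 FPKM in PD (0.40, SE 0.29). Atp5j2, subunit f, overlapped. Thus 3 of the 4 tested small membrane subunits and none of the 5 F1 subunits were higher in both PD libraries, beside 17.5% of all genes, a split that was not tested.

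There were 7 members below the minimum of 1 FPKM. Ndufs5, Ndufb4c, Cox6a2, Cox8b and Cox8c were listed at 0 in all 4 libraries, Atp5g2 had a mean of 0.257 FPKM, and Atp5l, subunit g, had a mean of 0.860 FPKM from PD replicate 2 alone. Just inside the minimum were Cox4i2 at 1.11 FPKM and Ndufb4 at 1.29 FPKM. Ndufs5 and Atp5l encode subunits that every complex contains, as do Ndufab1, Ndufa11, Ndufa12, Ndufb4, Cox5b and Cox7c. The means of these stayed below 10 FPKM, far below those of most partners. RefSeq names pseudogenes of Ndufs5, Atp5l, Ndufab1, Ndufa12, Cox5b and Cox7c, but not of Ndufa11 and Ndufb4. Some members with high levels have named pseudogenes too, 4 for Atp5k and 2 for Uqcrh. The part of reads shared with such copies in these low values was not tested.

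The wider pathway gave no passing gene either. The 13 subunits of the mitochondrial genome were not analysed here, so they are not compared with the nuclear subunits. Of 42 other assembly factors of the chain, 4 were higher in both PD libraries and 10 lower, with a median of -0.15. That is 33.3% without overlap, near the 35.8% of all genes tested, to which the lists that follow compare too. Pet117, a factor of complex IV assembly, had 6.22 and 8.25 FPKM in DMSO, and both PD libraries list it at 0 (adjusted p = 0.184 in limma). Pet117 reached the minimum only through its DMSO libraries. Cox14, which escorts the newly made Cox1 protein, had 34.4 and 16.4 FPKM in DMSO and 16.1 and 4.11 FPKM in PD. Taco1, an activator of Cox1 translation, had 4.67 and 3.30 FPKM in DMSO and 10.96 and 8.87 FPKM in PD, and Coa6, a copper factor, 1.54 and 2.44 FPKM in DMSO and 7.46 and 3.82 FPKM in PD. Rescaled without small RNA genes the median of this list was 0.12, and without PD replicate 2 it was 0.03, so its sign is not settled.

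Of 13 genes of coenzyme Q synthesis, 2 were higher and 3 lower (38.5% without overlap), with a median of -0.22. Its sign is not settled, at 0.03 after rescaling and 0.02 without DMSO replicate 2 or without PD replicate 1. Coq2, which attaches the isoprenoid tail, had 2.0 and 2.02 FPKM in DMSO and 0.308 FPKM and a listing at 0 in PD. Coq2 too reached the minimum only through its DMSO libraries. Coq8a, Coq8b and Coq6 differed by -0.65, 0.51 and 0.50.
Of 13 nuclear regulators, 5 were higher and 1 lower (46.2% without overlap), with a median of 0.05. Tfb1m, which methylates mitochondrial ribosomal RNA, had 3.66 and 5.69 FPKM in DMSO and 8.29 and 13.6 FPKM in PD (1.06, SE 0.38, adjusted p = 0.837). Esrra, an orphan nuclear receptor of respiratory genes, differed by 0.69, and the subunits of mitochondrial DNA polymerase, Polg2 and Polg, by -0.67 and 0.47.
Of 17 enzymes of the tricarboxylic acid cycle and pyruvate dehydrogenase, 1 was higher, 2 were lower and 14 overlapped (17.6% without overlap), with a median of -0.01. Sucla2, Fh1, Dlat and Suclg2 had the largest differences, 0.44, -0.34, 0.32 and -0.26. Of 26 import genes, 5 were higher and 6 lower (42.3% without overlap), with a median of -0.01. Tomm7, of the outer membrane translocase, had 127 and 137 FPKM in DMSO and 231 and 210 FPKM in PD (0.74, SE 0.24, adjusted p = 0.825). Tomm5, of the same translocase, had 38.3 and 11.9 FPKM in DMSO and 9.61 and 4.93 FPKM in PD (-1.51, SE 0.66), and Timm17a and Timm10 differed by -0.66 and 0.66.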

How the data were processed

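FPKM per gene were computed by the authors and deposited in 1 table for the 4 libraries, laid out as Cufflinks writes it, per the file headers. The tools named in the submitters' processing notes are Cufflinks, STAR, Bowtie2, Trimmomatic and FastQC and the build is mm10, with versions and the treatment of reads that match several places not given in the sources used here. Lysates were digested with RNase I and depleted of ribosomal RNA, per the labels' protocols. The members and gene lists were chosen with earlier results of these data known.

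Genes that averaged 1 FPKM or more were fitted as log2(FPKM + 1) with limma 3.58.1 in R 4.3.3 (lmFit, eBayes with a trend), with a term for group alone, which left 2 residual degrees of freedom. P-values are two-sided, with Benjamini-Hochberg adjustment over 9741 genes and a threshold of 0.05. The log2 scale understates differences of low genes. 1 gene with a failed status was left out. Whole reads were recovered from FPKM steps, within 0.02 reads, for 72.7% of 10161 genes above 0 in every library (1.50% with wrong steps) and for 66 members. They gave relative depth, Poisson intervals and a voom alternative. The model was tested on simulated data, where with a spread of 0.1 log2 units, 100% of genes changed by 1 were recovered, beside 16 unchanged genes. Symbols, gene types and promoters came from RefSeq tables of GRCm38.p6, where 24976 symbols were found, and 1 was added to the table's starts, which equal RefSeq's minus 1 for 14629 genes.

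Named in full were, per complex, members whose groups did not overlap (up to 4 per direction, by size of difference), the 3 highest by mean, and listed paralogs, and per pathway list the 4 largest differences. Alternatives changed the pseudocount, filter, scaling, variance model, replicate block, libraries and unit. The values of 1 member are not reported here. Figures used matplotlib 3.10.9.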

Additional observations from a re-analysis of the deposited data

How the results depend on the processing

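No member passed under any alternative run. The 31 named members gave 484 alternative log2 differences, of which 482 kept their sign. The exceptions were Uqcrc1, at 0.0011 after rescaling without small RNA genes, and Cox4i2, at 0.0752 in voom on recovered reads. Most of this was fixed in advance. These members were named because their groups did not overlap, so leaving out 1 library or changing the pseudocount could not turn a sign. The filters, variance models and replicate block leave the difference itself unchanged. Only the changes of scaling and voom could turn a sign. In 20 of the 31 some omission of a library shrank the difference by over 1.5 times, as for Cox6b1 (0.53, and 0.10 without DMSO replicate 2). Over all genes, 3 passed as higher and 22 as lower, and leaving out 1 library gave 0 to 27 higher and 0 to 20 lower. In voom 0 passed in either direction (416 at an unadjusted p under 0.05), as in limma on protein-coding genes alone (606). The latter was chosen after seeing the data, as were the restrictions to 20 FPKM and the protein-coding denominator. The replicate block gave 2 higher and 17 lower. Deviations of libraries with the same number correlated at 0.099 over all genes and 0.336 over members. With 2 pairs they share only a number.

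Members without overlap numbered 15 higher and 21 lower. Rescaled without small RNA genes they were 23 and 9, in voom, over 66 members, 9 and 19, among the 71 at 20 FPKM or more 14 and 12, and leaving out 1 library gave 24 to 26 higher and 30 to 43 lower. Rescaling moved the medians of all members to 0.23, complex II to 0.62, complex III to -0.0297, complex IV to 0.13 and complex V to 0.28. The assembly factors had -0.05 after rescaling, -0.57 with a filter of 5 FPKM, -0.91 at 20 FPKM or more and -0.50 to -0.22 without 1 library. Leaving out 1 library gave 0.10 to 0.45 for complex II, -0.50 to 0.21 for complex III and -0.373 to 0.0245 for complex IV, which had 0.0683 in voom and 0.0237 at 20 FPKM or more. The cause of these moves was not tested.

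With protein-coding genes in place of all genes other than small RNA genes as the denominator, shares in PD minus DMSO were -0.131 percentage points for all members, -0.0164 for the assembly factors, 0.0656 for complex II, -0.0827 for complex III, -0.208 for complex IV and 0.118 for complex V. With 2 libraries a group and few reads in PD replicate 2, differences of members were not resolved, whatever their level. Uqcr10 and Ndufc1, with means of 98.6 and 140 FPKM, had 3 and 5 reads in that library.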
